A study of Homo sapiens with 6 samples.

Results

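PAX8, WT1, SOX17, MECOM, WFDC2, FOLR1, MSLN, MUC1, MUC16 and EMX2 are 10 genes used to mark the Mullerian lineage and serous ovarian carcinoma, and their RNA levels were followed here in UWB1.289 cells with and without knockdown of the histone acetyltransferase HBO1. The genes were taken as a named list and not by a cut on measured values, though earlier results of these data were known. All transcript accessions of a gene were summed. Among 26967 named genes in the deposited table, 9 of the 10 had reads and a mean of at least 10 normalized counts and were tested among 15173 genes. EMX2 had 0 reads.

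UWB1.289 cells are an established human cell line grown from an ovarian carcinoma, without functional BRCA1 in either group. One group carried a control short hairpin (shCTRL, 3 libraries) and the other a hairpin against HBO1 (shHBO1, 3 libraries). Both groups received lentivirus with polybrene, then puromycin selection. The sources used here do not give the number of hairpins or the time of harvest, so other effects of a hairpin and loss of HBO1 cannot be told apart. The replicates are numbered 1 to 3 in each group, and whether they came from separate cultures is not said. The p-values therefore rest on a spread between libraries that may be purely technical.

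The Mullerian ducts form the fallopian tubes, uterus and upper vagina. The paired-box factor PAX8 and the SRY-box factor SOX17 are kept on in the secretory cells of the fallopian tube, from which many high-grade serous carcinomas are thought to arise, and pathologists use PAX8 and WT1 to recognise these tumours. A second set of markers sits on the cell surface or is shed into blood, where MUC16 is measured as CA125 and WFDC2 as HE4.

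The targeted gene KAT7, which encodes HBO1, was lower in each shHBO1 library. Its values were 3616, 3952 and 3554 normalized counts in shCTRL and 1008, 872 and 784 in shHBO1 (log2 fold change −2.07, SE 0.11, limma adjusted p = 0.00123). By exact two-sided permutation of the libraries p was 0.1, which is the lowest value possible with 3 per group. Libraries held 35940400 to 39908703 reads. In these bulk libraries, fewer cells that express a gene and less RNA per cell cannot be told apart.

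The epithelial identity of the line was clear, while 2 of the lineage markers went against the label. KRT7, KRT8, KRT18, KRT19, EPCAM and CDH1, which encode keratins and adhesion proteins of epithelia, were present in each library, with EPCAM at 27414 ± 859 normalized counts in shCTRL, against 28120 ± 1629 in shHBO1 (SD, n = 3). EMX2, a homeobox gene of the urogenital tract, had 0 reads in all 6 libraries, which allows at most 0.0752 to 0.0835 RPM (reads scaled to library depth). WT1, a zinc-finger factor used as a serous marker, had 0, 15 and 25 reads in the shCTRL libraries and 7, 17 and 19 in the shHBO1 libraries. The highest WT1 value measured was 0.696 RPM, and the table lists 5 accessions for the gene. The limit for EMX2 covers counting error only.

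On a scale of normalized counts per kilobase of transcript, which allows levels of different genes to be compared, PAX8 and WFDC2 had the highest levels among the members. In shCTRL, PAX8 averaged 2514 ± 400 and WFDC2 2434 ± 164 per kilobase, with overlapping libraries, at the 91.0 and 90.7 percentile of 14241 genes. The next 3 were MSLN at 1051 ± 266, MUC1 at 869 ± 362 and SOX17 at 742 ± 213, whose neighbours in this order overlapped. MECOM at 230.5 ± 51.0, FOLR1 at 78.3 ± 21.9 and MUC16 at 22.2 ± 8.90 followed without overlap between neighbours. MUC16, with a transcript of 43816 bases, was at the 12.9 percentile. In shHBO1 SOX17 at 611 ± 88.1 stood above MUC1 at 545 ± 159 with overlapping libraries, and the other members kept their places. There WFDC2 at 1811 ± 94.6 did not overlap PAX8 at 2388 ± 396. Lengths came from GENCODE release 29 and may differ from the transcripts that the authors counted. WT1 had too few transcripts with a matched length for this scale.

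**Figure D1:**
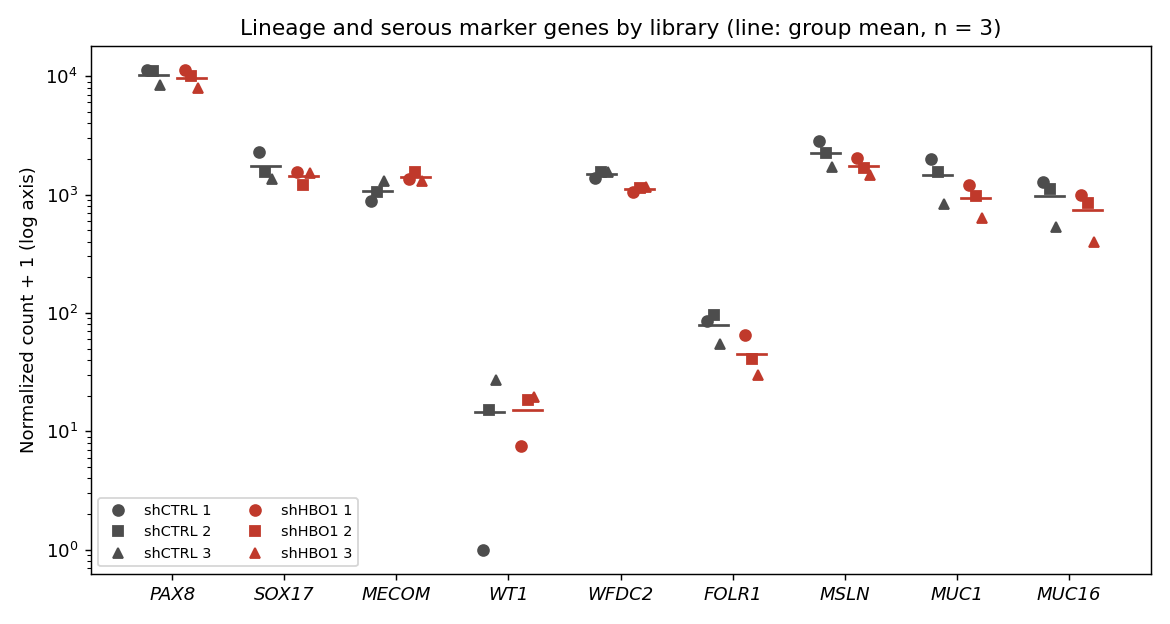
Normalized counts plus 1 on a log axis for the 9 detected genes, 1 point per library, with shapes for the replicate number and a line at each group mean. PAX8 is the highest in every library, WT1 lies near the bottom, and WFDC2 is the gene whose groups do not overlap.

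The promoters of 4 members are shown because 3 of them, WFDC2, MUC1 and MUC16, were at 77.3% of shCTRL or less in each numbered pair, while PAX8 was at 90.4% or more. FOLR1 also met that limit, at 75.6%, 41.6% and 54.1%, but is not shown because no promoter was found for it. The limit is the highest pair value of MUC16 itself, and the share of all genes that met it was not counted. Each sequence is the 250 bases before the outermost start listed by RefSeq (GRCh38.p14), written in the direction of the gene. Capitals mark matches, on either strand, to 4 motifs: the TATA box TATAAA, the CCAAT box CCAAT, the GC box GGGCGG and the E-box CACCTG.
WFDC2: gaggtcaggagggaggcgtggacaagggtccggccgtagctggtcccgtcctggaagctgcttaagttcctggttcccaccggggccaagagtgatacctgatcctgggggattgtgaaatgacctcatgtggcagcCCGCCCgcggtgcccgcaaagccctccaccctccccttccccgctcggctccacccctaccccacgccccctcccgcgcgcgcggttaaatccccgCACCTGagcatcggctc
MUC1: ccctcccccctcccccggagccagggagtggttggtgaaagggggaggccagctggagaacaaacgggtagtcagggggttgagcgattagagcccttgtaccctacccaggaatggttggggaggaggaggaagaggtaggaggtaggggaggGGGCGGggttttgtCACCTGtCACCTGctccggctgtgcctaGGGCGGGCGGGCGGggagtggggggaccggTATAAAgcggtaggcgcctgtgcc
MUC16: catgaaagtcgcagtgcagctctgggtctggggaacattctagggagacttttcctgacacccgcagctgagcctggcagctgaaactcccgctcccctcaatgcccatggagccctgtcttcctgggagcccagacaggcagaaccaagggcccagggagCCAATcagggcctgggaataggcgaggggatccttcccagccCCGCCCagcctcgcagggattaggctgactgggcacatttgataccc
PAX8: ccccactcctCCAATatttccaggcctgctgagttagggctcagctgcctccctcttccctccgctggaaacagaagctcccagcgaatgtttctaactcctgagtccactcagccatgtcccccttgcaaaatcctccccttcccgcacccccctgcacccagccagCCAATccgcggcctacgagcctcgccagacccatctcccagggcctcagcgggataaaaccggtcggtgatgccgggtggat

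These windows lie on GRCh38.p14 at chr20:45469503-45469752 on the plus strand for WFDC2, and on the minus strand at chr1:155192916-155193165 for MUC1, chr19:9065752-9066001 for MUC16 and chr2:113278922-113279171 for PAX8. The MUC1 window held 4 GC boxes, 3 of which overlap each other, 2 E-boxes and a TATA box that begins 24 bases before the start. WFDC2 had 1 GC box and 1 E-box, the E-box beginning 17 bases before the start. MUC16 had 1 CCAAT box and 1 GC box, and PAX8 had 2 CCAAT boxes and 0 matches to the other motifs. Among 35116 windows of the same length, 10.7% held the TATA box, 32.0% the CCAAT box, 42.6% the GC box and 17.5% the E-box. Each window was searched on both strands. A match is a run of letters and not a measured binding site. RefSeq promoters were found for 7 of the 10 members, and none was found for SOX17, FOLR1 and MSLN.

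**Figure D2:**
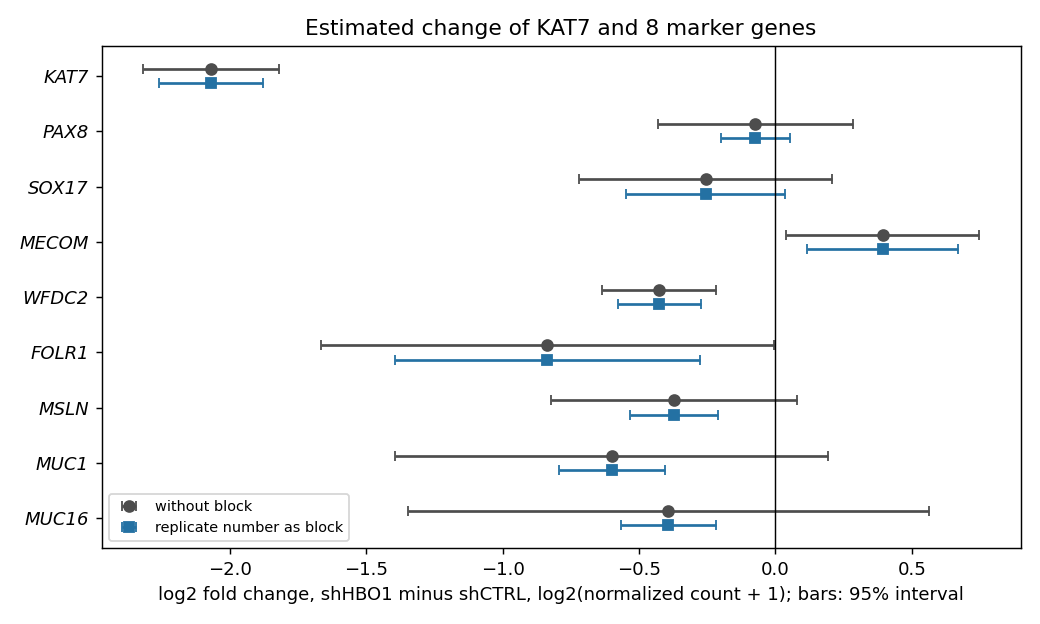
Log2 fold changes of KAT7 and the 8 members other than WT1 and EMX2, shHBO1 minus shCTRL, with 95% intervals from limma without (circles) and with (squares) the replicate number as a block. The estimate is the same in both fits, and the intervals of MUC1, MUC16 and MSLN exclude 0 in the blocked fit but not in the other.

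Of the 9 tested members, 0 passed an adjusted p of 0.05 in limma, with or without the replicate number as a block. Over all 15173 genes, 0.00659% passed without the block (KAT7 alone) and 0.125% with it, of which 0.0395% were higher in shHBO1 and 0.0857% lower. Estimates were below 0 for 7 members and above 0 for MECOM and WT1, with a median log2 fold change of −0.37, against a median of 0.00013 over all tested genes. At an unadjusted p under 0.05 without the block, 3 members differed, where 3.55% of all genes did: WFDC2 and FOLR1 were lower, as were 1.81% of genes, and MECOM was higher, as were 1.73%. With the block 6 members reached that level, where 11.3% of all genes did, 5 of them lower (5.9% of genes) and MECOM higher (5.41%). Same-numbered libraries shared deviations, so the blocked standard errors are given beside the others below. Since the genes were listed with earlier results known, these counts are a description.

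Among the transcription factors, PAX8 was nearly the same in both groups. PAX8 values were 11302, 11006 and 8351 normalized counts in shCTRL and 11189, 9948 and 8001 in shHBO1. The number 3 library was the lowest of each group, and the groups overlapped. Its log2 fold change was −0.074 (SE 0.15, 95% interval −0.43 to 0.28, limma adjusted p = 1.00), and with the block the interval was −0.20 to 0.053. The estimate changed sign to 0.0051 without shCTRL replicate 1 and to 0.059 without shHBO1 replicate 3. Transcript NM_003466 held 89.3 to 92.3% of PAX8 counts in shCTRL and 90.3 to 92.5% in shHBO1. The antisense gene PAX8-AS1 had at most 8.15 normalized counts in any library, and how many reads of their overlap were counted for PAX8 was not tested.

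SOX17 was lower in pairs 1 and 2 and higher in pair 3. Its values were 2305, 1551 and 1361 in shCTRL, against 1564, 1192 and 1533 in shHBO1. The shCTRL 1 library stood above the other 5, and the groups overlapped. The log2 fold change of −0.26 (SE 0.20, limma adjusted p = 1.00; blocked SE 0.13, blocked adjusted p = 0.498) was −0.034 without shCTRL replicate 1, −0.13 without shHBO1 replicate 2 and −0.41 without shCTRL replicate 3. Within pairs, SOX17 was at 67.9%, 76.9% and 112.6% of its shCTRL level for numbers 1, 2 and 3.

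MECOM, which encodes the zinc-finger factors EVI1 and MDS1-EVI1 and is often gained in ovarian carcinoma, had an estimate above 0, as did WT1 with its few reads. Its values were 879, 1047 and 1313 in shCTRL, against 1348, 1553 and 1306 in shHBO1. All 3 shHBO1 libraries exceeded shCTRL 1 and 2, and shHBO1 3 lay just below shCTRL 3. The log2 fold change was 0.39 (SE 0.15, 95% interval 0.040 to 0.74, limma adjusted p = 1.00; blocked SE 0.12, blocked adjusted p = 0.294). Within pairs it was at 153.5%, 148.3% and 99.4% of shCTRL, and the estimate was 0.25 without shCTRL replicate 1. Its counts were spread over 7 accessions, and the most abundant, NM_001105078, held 26.4 to 42.4% in shCTRL and 32.4 to 46.5% in shHBO1.

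A difference in WT1 was not detectable at this depth. Its mean was 13.4 ± 13.1 normalized counts in shCTRL, against 14.1 ± 6.53 in shHBO1 (SD, n = 3). On the log2(value + 1) scale, with 1 library at 0, its log2 fold change was 0.90 (SE 1.16), while the fits on recovered reads gave 0.065 (edgeR) and 0.070 (DESeq2). It was 0.34 with a pseudocount of 5 and −0.54 without shCTRL replicate 1, the library with 0 reads.

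Among the secreted and surface markers, WFDC2 was the one whose groups did not overlap. WFDC2, a small whey-acidic-protein domain protein secreted by tubal and ovarian tumour epithelium, had 1378, 1555 and 1551 normalized counts in shCTRL and 1046, 1137 and 1153 in shHBO1. The highest shHBO1 library lay below the lowest shCTRL library. Of the 9 members, 1 was separated in this way, where 8.93% of all tested genes were, 4.44% with shHBO1 lower. WFDC2 was at 75.9%, 73.2% and 74.3% of shCTRL in pairs 1, 2 and 3. The log2 fold change was −0.43 (SE 0.090, 95% interval −0.63 to −0.22, limma adjusted p = 1.00; blocked SE 0.065, blocked adjusted p = 0.0821). DESeq2 on recovered reads called WFDC2 lower without the block (DESeq2 adjusted p = 0.0420) and with it (DESeq2 adjusted p = 0.00434), and edgeR did not call it in either fit. Without the block DESeq2 called 0.125% of genes (0.0857% lower and 0.0396% higher), and WFDC2 was the 1 member among them. With the block it called 0.975% of genes, and all 3 members called were lower, as were 0.606% of genes, while 0.369% were higher. In edgeR 0 members passed, against 0.00659% of genes without the block and 0.125% with it, the latter split into 0.0857% lower and 0.0395% higher.

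MUC16 encodes CA125, a giant membrane mucin that binds mesothelin. Its values were 1277, 1107 and 533 in shCTRL, against 987, 846 and 399 in shHBO1. The groups overlapped, and the number 3 library of each group was the lowest, at 41.7% of number 1 in shCTRL and 40.4% in shHBO1. Within pairs, however, MUC16 was at 77.3%, 76.4% and 74.8% of shCTRL. The log2 fold change of −0.39 had an SE of 0.41 without the block and 0.075 with it (limma adjusted p = 1.00 and 0.125). Without a block the estimate was 0.0063 without shHBO1 replicate 3, −0.15 without shCTRL replicate 1, −0.25 without shCTRL replicate 2, −0.65 without shHBO1 replicate 1 and −0.78 without shCTRL replicate 3.

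MUC1 is a transmembrane mucin of glandular epithelia whose shed part is measured as CA 15-3. MUC1 values were 2016, 1537 and 837 in shCTRL, against 1213, 968 and 634 in shHBO1. Number 3 was again the lowest in each group, and shCTRL 3 lay below shHBO1 1 and 2. MUC1 was at 60.2%, 63.0% and 75.8% of shCTRL within pairs. The log2 fold change was −0.60 (SE 0.34, limma adjusted p = 1.00; blocked SE 0.085, blocked adjusted p = 0.0635, the lowest of the members). Without a block it was −0.32 without shCTRL replicate 1, −0.34 without shHBO1 replicate 3 and −0.96 without shCTRL replicate 3, and the most abundant transcript alone gave −0.97. DESeq2 with the block called MUC1 (DESeq2 adjusted p = 3.3e-05) and MSLN (DESeq2 adjusted p = 0.0105) lower.

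MSLN, the precursor of the surface protein mesothelin, was at 71.6%, 75.5% and 85.3% of shCTRL in pairs 1, 2 and 3. Its values were 2841, 2240 and 1704 in shCTRL, against 2034, 1692 and 1454 in shHBO1. In both groups number 1 was the highest and number 3 the lowest, and the groups overlapped. The log2 fold change was −0.37 (SE 0.20, limma adjusted p = 1.00; blocked SE 0.070, blocked adjusted p = 0.121), and it was −0.19 without shCTRL replicate 1 and −0.56 without shCTRL replicate 3. WT1 and MSLN also mark mesothelium. Of 9 other mesothelial markers, UPK1B, PRG4 and ITLN1 were at 0 in all libraries, and the summed level ran from 1458 to 2339 in shCTRL and from 1605 to 1892 in shHBO1. The surface glycoprotein PDPN of this list had 624, 615 and 876 in shCTRL, against 436, 472 and 605 in shHBO1. Its groups did not overlap, and its log2 fold change was −0.48 (SE 0.18, limma adjusted p = 1.00; blocked adjusted p = 0.110). BNC1 had 0.49, and CALB2, UPK3B and LRRN4 were present in each library with log2 fold changes between −0.038 and 0.037. The part of these markers in the MSLN difference was not tested.

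FOLR1, the folate receptor alpha that antibody-drug conjugates target in this cancer, was low in this line. Its values were 85.3, 95.5 and 53.5 in shCTRL, against 64.5, 39.7 and 28.9 in shHBO1. Only shHBO1 1 reached into the shCTRL range. FOLR1 was at 75.6%, 41.6% and 54.1% of shCTRL within pairs, with a log2 fold change of −0.84 (SE 0.36, 95% interval −1.67 to −0.0060, limma adjusted p = 1.00; blocked SE 0.24, blocked adjusted p = 0.268). The related FOLR2 averaged 274 ± 7.64 in shCTRL and 270 ± 24.5 in shHBO1. Of all windows of 50 bases in FOLR1 transcript NM_016729, 0% recurred in FOLR2 or FOLR3 transcripts.

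**Figure D3:**
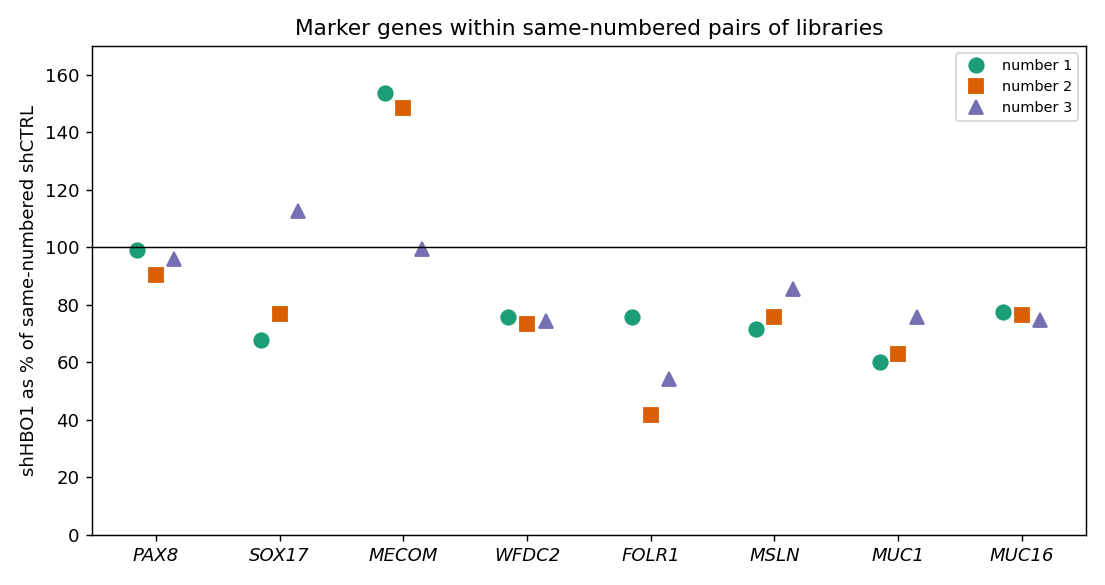
Each member's shHBO1 level as a percentage of the shCTRL library with the same number, 1 point per pair; the line at 100 is no difference. WFDC2 and MUC16 sit between 73.2% and 77.3% in every pair, while SOX17 lies at 112.6% and MECOM at 99.4% in number 3.

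Within all 3 numbered pairs, 6 of the 9 tested members were lower in shHBO1 (PAX8, WFDC2, FOLR1, MSLN, MUC1 and MUC16), where 17.1% of all tested genes were, and 0 were higher, where 15.3% of all genes were. The median over the members was −0.40, −0.39 and −0.40 on the log2 scale in pairs 1, 2 and 3. Without shCTRL replicate 1 and without a block the median log2 fold change over the members was −0.19, against −0.37 with all libraries.

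The replicate numbers differed for 4 of the members. In the blocked limma fit an F test for the number passed for PAX8 (adjusted p = 0.0134), MSLN (0.0137), MUC1 (0.00302) and MUC16 (0.000791), that is for 4 of 9 members, where 9.68% of all genes passed. The log2 difference between number 3 and number 1 was −0.46 for PAX8, −0.61 for MSLN, −1.10 for MUC1 and −1.28 for MUC16. WFDC2 (0.16), MECOM (0.27), SOX17 (−0.39) and FOLR1 (−0.90) did not pass, and WT1 (3.06, at very low counts) did not either. All 4 were highest in number 1 and lowest in number 3 in both groups, as were 9.33% of all genes. The labels do not say what the number stands for, and its part in the difference between groups was not tested beyond the block.

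**Figure D4:**
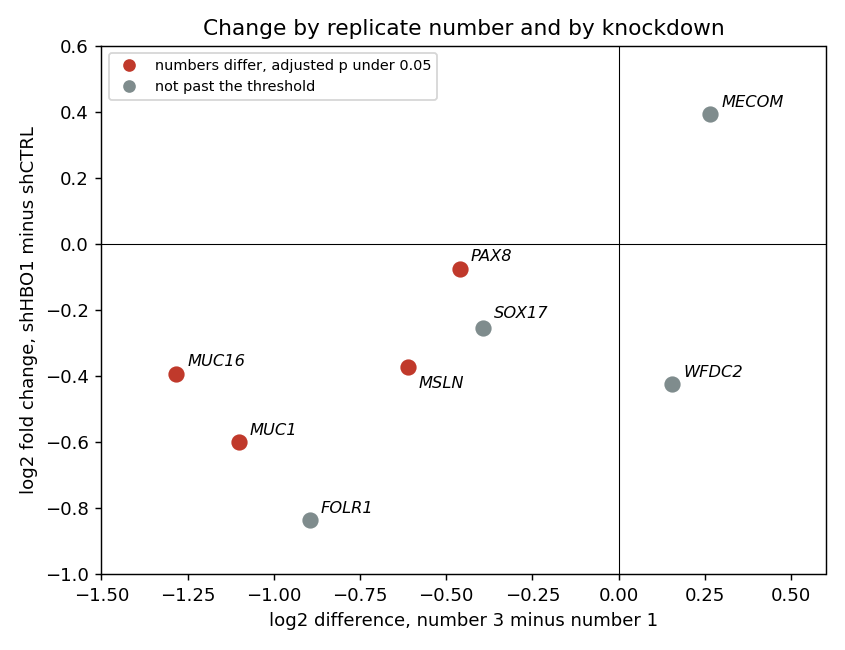
For 8 members, the log2 difference between replicate numbers 3 and 1 (horizontal) against the log2 fold change between shHBO1 and shCTRL (vertical), both from the blocked fit. MUC16 and MUC1 differ by over 1 between numbers and by less than that between groups, and WFDC2 differs between groups with a small difference between numbers.

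Of the 5 genes compared by deposited transcript, MUC1 was the one whose main transcript held shares that did not overlap between the groups. How many of all genes separate in this way was not counted, so the MUC1 shares are a description. NM_001204286 held 77.9%, 84.2% and 75.9% of MUC1 counts in shCTRL and 73.2%, 58.0% and 54.5% in shHBO1, and the groups did not overlap. NM_001204285 held 13.4%, 8.35% and 18.5% in shCTRL, against 22.7%, 37.1% and 36.8% in shHBO1. In counts, NM_001204286 averaged 1167 ± 481 in shCTRL and 598 ± 273 in shHBO1, and NM_001204285 averaged 185 ± 75.3 and 289 ± 64.2. The exact two-sided permutation test of the share of NM_001204286 gave p = 0.1, the smallest 3 against 3 allows (adjusted p = 0.5 over 5 genes compared). Of the 50-base windows of NM_001204286, 96.0% also occur in NM_001204285, so most single reads of 50 bases could not tell them apart. The part of the actual read length was not tested, and the sources used here do not say how the authors shared reads common to both. For PAX8, MECOM, MSLN and FOLR1 the share of the main transcript overlapped between groups.

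**Figure D5:**
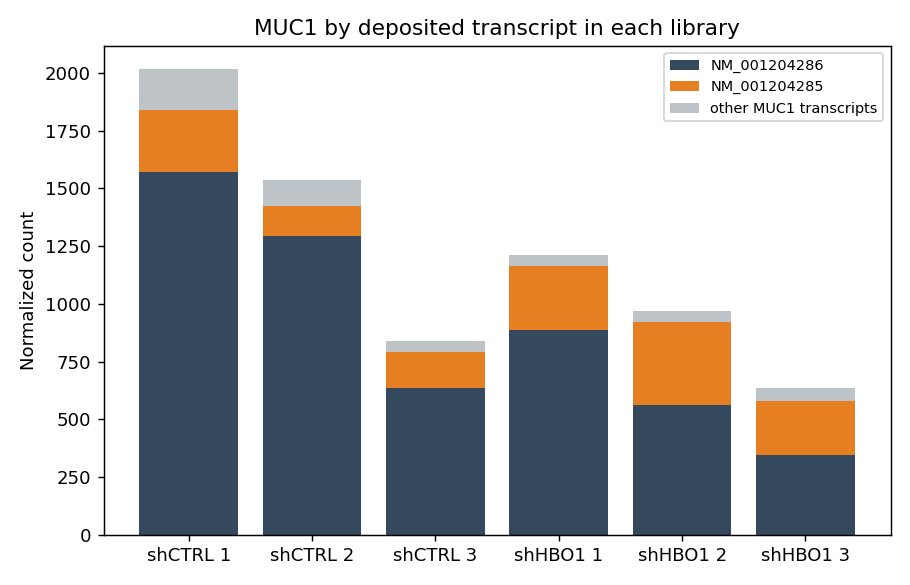
MUC1 normalized counts in each library, stacked by deposited transcript. The share of NM_001204285 lies between 8.35% and 18.5% in the shCTRL libraries and between 22.7% and 37.1% in the shHBO1 libraries.

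Other genes of the lineage had estimates on both sides of 0. Of 19 Mullerian patterning and tubal genes, 14 were tested, 0 passed with or without the block, 9 estimates were above 0 and 5 below, and the median log2 fold change was 0.034. LHX1, a homeobox gene needed for duct formation, was the clearest of them, at 294, 327 and 361 normalized counts in shCTRL and 462, 449 and 477 in shHBO1. Its groups did not overlap, as for 4.49% of genes with shHBO1 higher, and its log2 fold change was 0.50 (SE 0.12, limma adjusted p = 1.00; blocked adjusted p = 0.152). PAX2, AMHR2, ESR1 and PGR, the last 2 being the oestrogen and progesterone receptors, were at 0 in all 6 libraries. The Wnt ligand WNT7A was the highest gene of this list and had a log2 fold change of 0.046. HOXA10 had −0.092, and OVGP1, the oviductal glycoprotein of secretory cells, had −0.40 at about 50 counts.

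Among 24 other serous surface and secreted markers, 21 were tested, 11 estimates were below 0 and 10 above, with a median of −0.037. Without the block 0 passed. With it the copper carrier CP (ceruloplasmin) fell, from 343, 577 and 217 in shCTRL to 170, 253 and 114 in shHBO1 (log2 fold change −1.04, blocked SE 0.12, blocked limma adjusted p = 0.0326). In the blocked fit on the most abundant transcript of each gene 1 gene passed, KAT7, so CP did not. The tight-junction claudin CLDN3 had −0.50 and the phosphate carrier SLC34A2 −0.55, while the surface glycoprotein CD24 had 0.58. By replicate number 8 of the 21 differed, and the list's median for number 3 minus number 1 was −0.37. CLDN4, with −1.01 between the numbers, had −0.20 between groups.

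In the families of the members 0 genes passed. Of 14 genes listed as other mucins 5 had enough counts, with 0 called and a median of −0.22. These 5 include MCAM, an adhesion molecule that is not a mucin. Estimates were below 0 for 3 of them, MUC20, MUC4 and MUC5B (−0.38). They were above 0 for MUC12 (0.63, at a mean of 16.6 counts) and MCAM (0.11). The mucin MUC20 had 1078, 971 and 609 in shCTRL, against 654, 610 and 533 in shHBO1 (log2 fold change −0.53, SE 0.21, limma adjusted p = 1.00; blocked adjusted p = 0.169). MUC4 had −0.22 and, like MUC1 and MUC16, differed between numbers 3 and 1, by −1.19. Of 8 other WAP-domain genes 4 were tested, with a median of −0.093, and the protease inhibitor SLPI was level at 3667 ± 102 in shCTRL and 3795 ± 101 in shHBO1. Of 13 folate carriers and enzymes, 12 were tested and 0 passed, with a median of −0.017. Thymidylate synthase TYMS, at −0.28, was the one with separated groups. SOX7, a relative of SOX17, had 0.39, and the antisense genes WT1-AS and EMX2OS were at or near 0.

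The 3 genes whose profile over the 6 libraries was most like that of PAX8, among 13220 genes with a mean of at least 50, were CALB1 (Pearson r = 0.998), ABCC1 (0.995) and INVS (0.995) on the log2 scale. CALB1, a calcium-binding protein, had 629, 596 and 376 normalized counts in shCTRL and 597, 513 and 343 in shHBO1, lowest in number 3 of each group like PAX8. These correlations rest on 6 libraries that share the replicate numbers and were picked as the highest of many.

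Markers of other cell types overlapped between the groups in summed level, with some single genes apart. Fibroblast and endothelial markers DCN and PDGFRA and the leukocyte markers CD4 and TYROBP were at 0, as were the kidney gene UMOD and the gut keratin KRT20. The summed level of 10 leukocyte markers was 557 to 695 in shCTRL and 562 to 706 in shHBO1, and that of 10 fibroblast and endothelial markers 1860 to 2663 and 1947 to 2319. The endothelial cadherin CDH5 had 1232, 1029 and 835 in shCTRL, against 856, 699 and 674 in shHBO1 (log2 fold change −0.46, SE 0.16, limma adjusted p = 1.00; blocked adjusted p = 0.110). The monocyte receptor CD14 had 39.6, 38.4 and 38.8 in shCTRL, against 16.8, 24.4 and 14.5 in shHBO1, without overlap (log2 fold change −1.06, SE 0.30, limma adjusted p = 1.00; blocked adjusted p = 0.271). CD68, THY1 and COL1A1 were also present in each library, with log2 fold changes of 0.077, −0.092 and 0.27. The part of these markers in the members' differences was not tested.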

How the data were processed

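The authors deposited 1 table of signal values per RefSeq transcript accession (58215 accessions, 6 libraries), the signal being a normalized read count. The submitters' processing notes list Bowtie 1.2.1.1, SAMtools, DESeq2 and the build hg19, with no role for each, and the way in which reads were divided among transcripts was not stated there. Within each library the values were whole multiples of 1 step, and 100% gave whole reads within 0.01 read. RefSeq (GRCh38.p14) named 57191 accessions and GENCODE 29 named 646; the 378 without a name were left out. Values were summed per gene.

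Genes with a mean of at least 10 were tested with limma-trend (limma 3.58.1, R 4.3.3) on log2(value + 1), with Benjamini-Hochberg adjustment over 15173 genes. Fold changes are on that scale, where those of low genes depend on the pseudocount. Recovered reads were also tested with edgeR 4.0.16 and DESeq2 1.42.0. Tested on simulated data for this comparison, the limma procedure recovered 94.5% of 200 genes changed by known folds among 15173. The share it would recover at the members' own fold changes and library spread was not tested.

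Deviations from the group means correlated between same-numbered libraries (r = 0.32, 0.19 and 0.48 for numbers 1, 2 and 3). Control library 2 also correlated with shHBO1 library 1 (r = 0.21), more than with its own number. All same-numbered values exceeded 0.1, so the number was taken to pair the libraries; the labels do not tie it to a day or batch.

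The members, lists and tests were chosen with earlier results of these data known. The rule for named genes took KAT7, the members with their antisense genes and 2 most abundant transcripts, CP and the epithelial markers, the 4 genes of each other list with the smallest p without a block, any list gene past the threshold, and the 3 genes most like PAX8. Not every gene that the rule took is named above. Those left out include DACH1 and HOXA7 of the patterning list and PI3, WFDC1 and WFDC3 of the WAP-domain list. SHMT1, MTHFD1 and MTHFD2 of the folate list were left out too. WNT7A, HOXA10, MUC4, UPK3B, CLDN4 and the genes at 0 were named after their values were seen.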

Additional observations from a re-analysis of the deposited data

How the results depend on the processing

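The number of genes called depended on the block and the tool. With the replicate block limma called 19 genes, and 0 members. DESeq2 called 19 without a block, of which 1 was a member (WFDC2). Added after seeing the data were edgeR with the replicate block (19 genes, 0 members) and DESeq2 with the replicate block (148 genes, 3 members: WFDC2, MSLN and MUC1). The limma fit without the pair numbered 3 was added too. Without a block it called 1 gene and 0 members. With a block, and 1 residual degree of freedom, it called 2160 of 15173 genes, 1105 higher in shHBO1 and 1055 lower. Among them were 7 of the 9 tested members, all but PAX8 and WT1, with 1 higher (MECOM) and 6 lower. Also added was the most abundant transcript with the replicate block (1 gene, KAT7, and 0 members). Why the counts differ was not tested. The other scalings, pseudocounts and filters, and the most abundant transcript, left 1 gene and 0 members called, as did leaving out each library in turn. With single libraries left out the members' median log2 fold change ran from −0.41 to −0.19, that of PAX8 from −0.21 to 0.059, that of WT1 from −0.54 to 1.84, MUC16 from −0.78 to 0.0063, MUC1 from −0.96 to −0.32, MSLN from −0.56 to −0.19, SOX17 from −0.41 to −0.034, MECOM from 0.25 to 0.54, FOLR1 from −1.14 to −0.57 and WFDC2 from −0.48 to −0.38. Signs turned for PAX8 (0.0051 without shCTRL replicate 1, 0.059 without shHBO1 replicate 3), WT1 (−0.54 without shCTRL replicate 1) and MUC16 (0.0063 without shHBO1 replicate 3). Between replicate numbers DESeq2 added SOX17 to the 4 members. Depth limits FOLR1 and WT1.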
